A study of Mus musculus with 12 samples.

Results

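The MHC class II and costimulation genes described here are 10 genes by which antigen-presenting cells display peptides to CD4+ T cells and license their activation. They were found by gene symbol in a table of 55401 genes measured by RNA sequencing in whole mouse liver, and all 10 were among the 17585 genes abundant enough to be tested. By role, 6 of them build or load the class II molecule (H2-Aa, H2-Ab1, H2-Eb1, Cd74, H2-DMa and H2-DMb1), 1 is the class II transactivator (Ciita), and 3 are costimulation genes (Cd80, Cd86 and Cd40).

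Livers of male mice between 7 and 10 weeks of age gave 12 libraries, 3 in each of 4 groups. Both genotypes carried Fbxl5 alleles flanked by loxP sites (FBXL5F/F), so the controls differ from wild-type mice in that respect too. FBXL5ΔDC mice also had Cre recombinase under the CD11c promoter, whose activity is greatest in dendritic cells but not limited to them. FBXL5 senses iron and marks an iron regulatory protein for degradation, and the study concerns dendritic cell iron overload in acetaminophen liver injury. Livers were taken without treatment, called 0 h here, or 6 h after an intraperitoneal injection of acetaminophen (APAP), a painkiller that kills hepatocytes at high doses. Doses of 300 and 500 mg/kg are both named in the labels, which do not tie either to particular mice, and they describe a 16 h fast before injection. Whether the 0 h mice were fasted is not said, so fasting and acetaminophen cannot be told apart in the 6 h minus 0 h comparisons. Nothing in the labels says how litters or cages were spread over the groups, so the p-values measure only the spread between these samples.

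An MHC class II molecule is a pair of an alpha and a beta chain. In the endoplasmic reticulum it is held by the invariant chain, encoded by Cd74, which fills the groove and steers it to endosomes. There the invariant chain is degraded, and the H2-DM heterodimer swaps its remnant for antigen peptides. CIITA does not bind DNA itself: it is recruited by factors that sit on conserved X and Y boxes upstream of these genes. CD80 and CD86 bind CD28 and CTLA4 on T cells, and CD40 receives the signal of CD40 ligand. In the liver, dendritic cells, Kupffer cells, B cells and sinusoidal endothelial cells are the usual sources of class II.

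Promoter sequence was searched for the X and Y boxes, which were found in some of these genes only. RefSeq windows of GRCm38.p6 were held for 5 of the 10 genes (Cd80, H2-Aa, H2-DMa, H2-DMb1 and H2-Eb1), in 6 windows because H2-DMa has 2. The 250 bases before each start were searched on both strands for an X box core (AACNGATG) and a Y box core (TGATTGG), which share no bases in these windows. Of 32851 RefSeq windows, 1.98% held the X core, 7.23% the Y core and 0.146% both. H2-Eb1 held both, with X at -89 to -82 and Y at -61 to -55 from the start. H2-DMb1 also held both, with X at -92 to -85 and Y at -63 to -57. The bases between X and Y numbered 20 in H2-Eb1 and 21 in H2-DMb1. H2-Aa held the Y core only, at -50 to -44, and neither core was found in the windows of H2-DMa and Cd80. A match is a description of letters, not a measured binding site, and a core not found does not show that a box is absent. The alpha and beta chain genes whose levels are given next are shown here, with the cores in capitals, H2-Aa from chr17:34287859-34287923 on the minus strand and H2-Eb1 from chr17:34305756-34305820 on the plus strand.
H2-Aa: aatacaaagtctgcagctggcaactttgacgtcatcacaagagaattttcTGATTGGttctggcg
H2-Eb1: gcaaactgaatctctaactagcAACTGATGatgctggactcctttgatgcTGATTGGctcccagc

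The libraries were deep and even, with total counts from 67173096 to 72512319 and 19203 to 21405 genes detected. Levels are in CPM, counts relative to the scaled library size, as mean ± SD over 3 livers (n = 3). A group with under 12 counts per library on average, 0.148 to 0.197 CPM depending on the library, is called under the floor, and this limit covers counting error only. The samples were liver by their hepatocyte markers, whose 8 genes summed to between 73670 and 146000 CPM. Fbxl5, which only cells with CD11c promoter activity should lose, was at 20.1 ± 2.27 CPM in control and 17.2 ± 5.99 in FBXL5ΔDC livers at 0 h, and at 15.8 ± 3.01 and 18.6 ± 5.25 at 6 h. Itgax, which encodes CD11c, was under the floor in both groups at 0 h (0.158 and 0.114 CPM) and at 0.372 and 0.414 CPM at 6 h, so whole liver gives little view of the deletion. One library stands apart over all genes: without control replicate 3 at 6 h, the genes called between genotypes at 6 h went from 1031 to 4249. Another, control replicate 1 at 6 h, stands apart for the class II genes, and results that rest on either are given with and without it.

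No member passed the test in any of the 5 comparisons of the 2 by 2 design, at an adjusted p below 0.05 over all tested genes. Over the same 17585 genes, 10.6% were called in the acetaminophen response of control livers (6.36% higher and 4.2% lower) and 30.1% in that of FBXL5ΔDC livers (15% higher and 15.1% lower). Between genotypes 0% were called at 0 h and 5.86% at 6 h (1.35% higher and 4.51% lower in FBXL5ΔDC livers), and 0.29% in the difference between the responses (0.0341% and 0.256%). At an unadjusted p below 0.05, edgeR gave 1 member in the control response (Cd86), 2 in the FBXL5ΔDC response (H2-Aa and Cd86) and 0 in the other 3 comparisons. DESeq2 called 1 member (Cd86, adjusted p = 0.0241) in the FBXL5ΔDC response and 0 in the others. Cd86 alone was called when the responses of both genotypes were averaged, a comparison added after its values had been seen. In bulk liver, a lower level from fewer cells of a type and from less RNA per cell cannot be told apart.

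The core class II genes were the most abundant members, and their spread within a group was widest in the treated controls. Cd74 lies on chromosome 18 (60803848 to 60812652, plus strand) and shares 12 exon bases with the microRNA gene Mir5107. It was at 27.5, 24.1 and 30.8 CPM in the control livers at 0 h and at 28.6, 35.5 and 17.9 CPM in the FBXL5ΔDC livers at 0 h. At 6 h it was at 14.1, 42.7 and 27.9 CPM in control and at 51.3, 42.2 and 37.6 CPM in FBXL5ΔDC livers. The 3 treated FBXL5ΔDC livers were thus above all 3 untreated ones, while the treated controls held both the lowest value of the 12 and the second highest. Group means were 27.5 ± 3.33 (control) and 27.3 ± 8.90 (FBXL5ΔDC) at 0 h, and 28.2 ± 14.3 and 43.7 ± 6.96 at 6 h.

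H2-Aa, on chromosome 17 (34282744 to 34287823, minus strand), encodes the alpha chain of the I-A molecule. It was at 8.87, 6.77 and 6.98 CPM in control and 7.39, 8.23 and 5.88 CPM in FBXL5ΔDC livers at 0 h. The treated livers were at 4.503, 12.2 and 8.14 CPM in control and 13.2, 9.73 and 11.7 CPM in FBXL5ΔDC livers. The treated FBXL5ΔDC livers did not overlap the untreated ones but did overlap the treated controls. H2-Ab1, the I-A beta chain gene (chromosome 17, 34257689 to 34269419, plus strand), was at 8.08, 6.24 and 9.23 CPM in control and 10.4, 10.8 and 5.32 CPM in FBXL5ΔDC livers at 0 h. After acetaminophen H2-Ab1 was at 3.75, 13.7 and 10.2 CPM in control and 16.9, 10.98 and 11.3 CPM in FBXL5ΔDC livers, again with the lowest of the 12 in control replicate 1 and the highest in FBXL5ΔDC replicate 1. H2-Eb1, the I-E beta chain gene (chromosome 17, 34305867 to 34316674, plus strand), was at 7.22, 6.63 and 7.74 CPM in control and 7.23, 8.92 and 4.74 CPM in FBXL5ΔDC livers at 0 h. In the treated livers it was at 3.56, 10.8 and 7.28 CPM in control and 11.9, 10.9 and 9.73 CPM in FBXL5ΔDC livers, which shows the same order of livers within the treated controls as the other chains. Its partner chain gene H2-Ea had 0 counts in 3 of the 4 groups and 1 count per library on average in the treated FBXL5ΔDC livers.

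**Figure D1:**
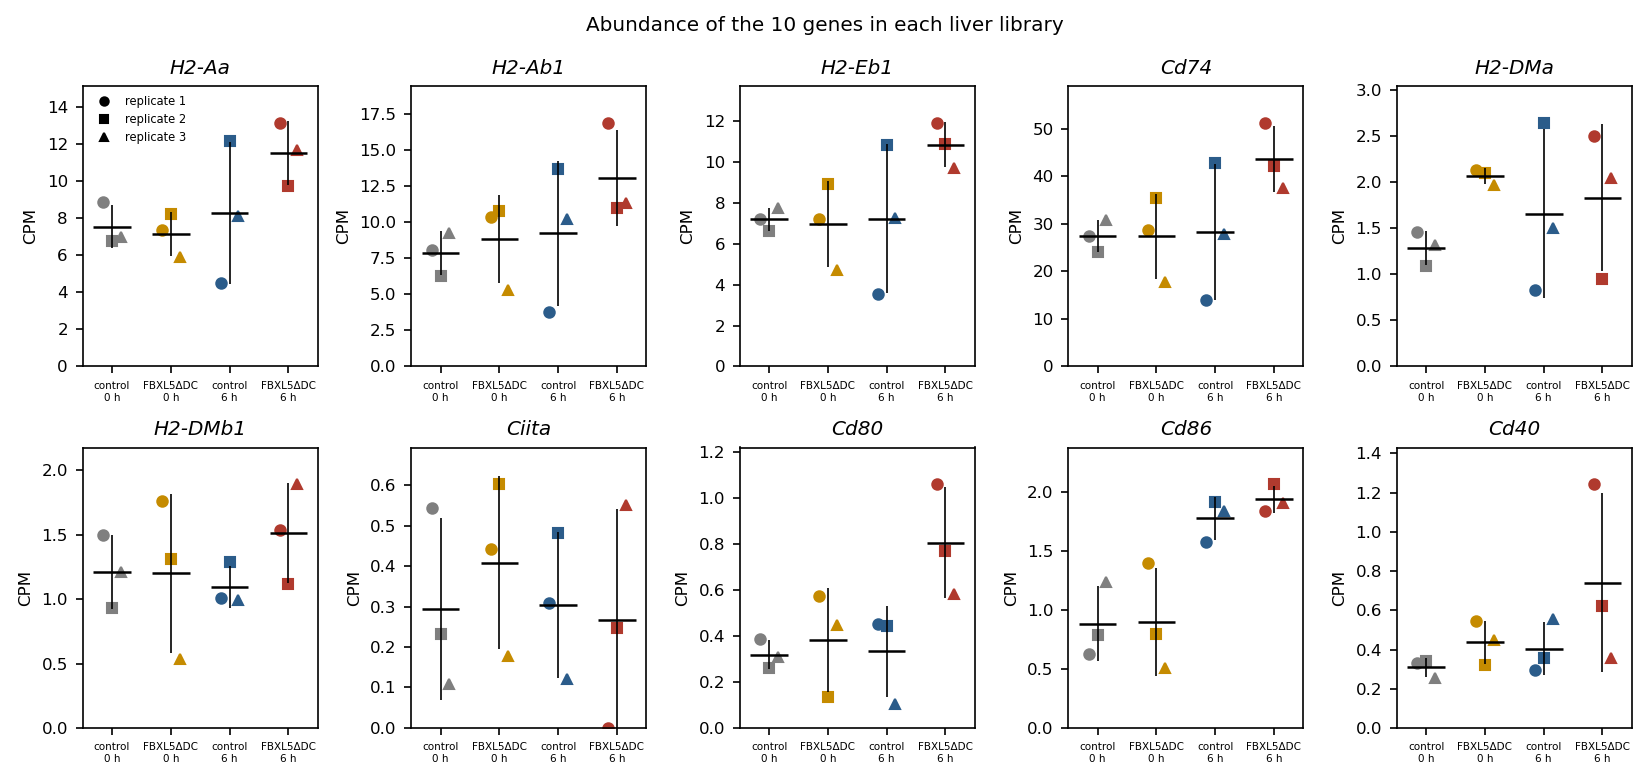
Level of each of the 10 genes (vertical axis, CPM) in the 12 liver libraries, by group; each symbol is 1 library, its shape the replicate number, the horizontal bar the group mean and the vertical bar 1 SD (cut at 0). Cd86 is higher at 6 h in both genotypes with no overlap within a genotype, while Cd74 in the treated control livers spans 14.1 to 42.7 CPM.

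The H2-DM genes, whose products load peptides, followed that pattern only in part. H2-DMa (chromosome 17, 34119541 to 34139101, plus strand) shares 360 exon bases with Brd2 on the other strand, and without knowledge of strand in the counting their reads cannot be told apart there. It was at 1.46, 1.09 and 1.32 CPM in control and 2.13, 2.10 and 1.97 CPM in FBXL5ΔDC livers at 0 h. After treatment it was at 0.826, 2.65 and 1.505 CPM in control and 2.503, 0.952 and 2.04 CPM in FBXL5ΔDC livers. H2-DMa had the order of the chain genes and Cd74 in the treated controls. In the treated FBXL5ΔDC livers it had the order of H2-Aa and H2-Ab1 but not that of H2-Eb1 and Cd74. It was the 1 member whose genotypes did not overlap at 0 h, where 5.94% of tested genes did so in the same direction and 5.8% in the other, and its adjusted p there was 1. H2-DMb1 (chromosome 17, 34153072 to 34160230, plus strand) was at 1.21 ± 0.285 and 1.201 ± 0.618 CPM at 0 h, and at 1.10 ± 0.165 and 1.52 ± 0.389 CPM at 6 h, in control and FBXL5ΔDC livers. Its groups overlapped in every comparison. Reads of H2-DMb1 and its near-identical neighbour H2-DMb2 may have been split between them in the counting, so both levels are uncertain.

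Ciita (chromosome 16, 10480059 to 10528418, plus strand), the switch for the whole class II set, was the scarcest member per length of transcript. Its raw counts were 41, 17 and 8 in control and 31, 41 and 12 in FBXL5ΔDC livers at 0 h, and 24, 39 and 8 in control and 0, 15 and 37 in FBXL5ΔDC livers at 6 h. No group was under the floor on average. FBXL5ΔDC replicate 1 at 6 h had 0 counts of Ciita, and also the highest Cd74, H2-Aa, H2-Ab1 and H2-Eb1 of the 12 libraries. The 95% interval of the FBXL5ΔDC response ran from 0.117-fold to 3.64-fold, so a change of several fold in Ciita in either direction was not detectable at this depth. Ciita also shares 329 exon bases with Dexi on the other strand.

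Among the costimulation genes, Cd86 was higher after acetaminophen in every treated liver than in every untreated liver. It lies on chromosome 16 (36603869 to 36666081, minus strand) and encodes the B7-2 ligand. It was at 0.623, 0.792 and 1.24 CPM in control and 1.4, 0.794 and 0.507 CPM in FBXL5ΔDC livers at 0 h. The treated livers were at 1.57, 1.92 and 1.84 CPM in control and 1.84, 2.07 and 1.91 CPM in FBXL5ΔDC livers. Each genotype taken alone missed the threshold, with a log2 response of 1.01 (SE 0.40, adjusted p = 0.138) in control and 1.11 (SE 0.40, adjusted p = 0.056) in FBXL5ΔDC livers. Averaged over genotypes, Cd86 rose 2.08-fold (95% interval 1.35 to 3.19, log2 SE 0.29, adjusted p = 0.0122), higher in 6 of 6 treated livers than in any untreated one, in a comparison that called 34.3% of all tested genes and 18.2% as higher. The response of Cd86 differed between genotypes by a log2 of 0.10, with an interval from -1.13 to 1.33, which leaves room for a difference of up to 2.51-fold.

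Cd80, the B7-1 gene (chromosome 16, 38455561 to 38496335, plus strand), had between 7 and 69 counts per library. It was at 0.385, 0.259 and 0.309 CPM in control and 0.572, 0.132 and 0.447 CPM in FBXL5ΔDC livers at 0 h. At 6 h it was at 0.452, 0.445 and 0.105 CPM in control and 1.06, 0.771 and 0.581 CPM in FBXL5ΔDC livers. The treated FBXL5ΔDC livers were above all others, at 2.39-fold the treated controls with an interval from 0.841 to 6.80 (adjusted p = 0.311). Without control replicate 3 at 6 h, the lowest of these, the log2 difference of Cd80 went from 1.26 to 0.84.

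Cd40 (chromosome 2, 165055627 to 165072948, plus strand) was at 0.332, 0.341 and 0.255 CPM in control and 0.543, 0.323 and 0.447 CPM in FBXL5ΔDC livers at 0 h. At 6 h it was at 0.297, 0.358 and 0.557 CPM in control and 1.24, 0.623 and 0.358 CPM in FBXL5ΔDC livers. FBXL5ΔDC replicate 1 at 6 h was the highest library for Cd40, as it was for Cd80, Cd74 and the 3 chain genes, and the treated groups overlapped. The FBXL5ΔDC response of Cd40 was 1.69-fold with an interval from 0.70 to 4.09 (adjusted p = 0.37).

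In FBXL5ΔDC livers the core class II genes had higher means after acetaminophen, none past the threshold. H2-Aa had a log2 response of 0.69 (SE 0.30, unadjusted p = 0.0379, adjusted p = 0.1), Cd74 of 0.68 (SE 0.34, adjusted p = 0.16), H2-Eb1 of 0.64 (SE 0.33, adjusted p = 0.169) and H2-Ab1 of 0.57 (SE 0.40, adjusted p = 0.326). In fold terms the intervals ran from 1.03 to 2.51 for H2-Aa, from 0.954 to 2.68 for Cd74, from 0.948 to 2.56 for H2-Eb1 and from 0.807 to 2.71 for H2-Ab1. Rises of up to about those upper limits were therefore compatible with the spread between livers. The treated FBXL5ΔDC livers stood wholly above the untreated ones for 6 members (H2-Aa, H2-Ab1, H2-Eb1, Cd74, Cd80 and Cd86) and wholly below for 0, where 24.2% of all tested genes stood above and 24.5% below. The gap was narrow for H2-Ab1 (10.98 against 10.76 CPM) and Cd80 (0.581 against 0.572 CPM). In unscaled counts both overlapped (669 against 732 and 39 against 40). The 4 core class II genes also varied together from liver to liver, so the 6 members are not independent. The median log2 response of the 10 members was 0.66, beside 0.02 over all tested genes.

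In control livers the same responses were a log2 of 0.13 for H2-Aa, 0.04 for Cd74, 0.01 for H2-Eb1 and 0.23 for H2-Ab1, with adjusted p from 0.805 to 0.995. Only Cd86 had treated controls wholly above untreated ones and 0 members wholly below, beside 15.3% and 13.4% of tested genes. The median of the 10 members was 0.10, beside 0.03 over all tested genes. These control values depend on the libraries used. Without replicate 1 at 6 h, H2-Aa went to 0.43, Cd74 to 0.36, H2-Eb1 to 0.33 and H2-Ab1 to 0.60. The median of the 10 then went to 0.39, and still no member was called. The lowest values over all alternatives were -0.26 for H2-Aa, -0.39 for Cd74, -0.41 for H2-Eb1 and -0.17 for H2-Ab1.

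Between genotypes at 6 h, Cd74 differed by a log2 of 0.63 (SE 0.34, adjusted p = 0.299) and H2-Aa by 0.48 (SE 0.29, adjusted p = 0.368). Positive differences were seen for 9 members and a negative one for Ciita, with a median of 0.49 beside -0.01 over all tested genes. Cd80 was the 1 member whose treated genotypes did not overlap, where 9.74% of tested genes did so in that direction. Without control replicate 1 the median of the 10 went to 0.22, Cd74 to 0.31, H2-Aa to 0.18 and H2-DMa from 0.14 to -0.18. Without control replicate 3 the median was 0.52, and no member was called either way. Cd74 and H2-Aa had their lowest adjusted p without control replicate 2, at 0.116 and 0.141. Their log2 differences over all alternatives ran up to 1.06 and 0.87.

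At 0 h the genotype differences were centred near 0 for the chain genes, at -0.07 for H2-Aa, 0.17 for H2-Ab1, -0.05 for H2-Eb1 and -0.01 for Cd74, all with an adjusted p of 1. The interval for Cd74 ran from 0.595-fold to 1.66-fold, so differences below those sizes could not be seen. The difference between the responses was 0.64 for Cd74 (SE 0.48, adjusted p = 0.586), 0.55 for H2-Aa (SE 0.42, adjusted p = 0.587) and -0.54 for H2-DMa (SE 0.62, adjusted p = 0.748). Without control replicate 1 at 6 h these went to 0.31 for Cd74, 0.25 for H2-Aa and -0.86 for H2-DMa, and H2-Ab1 went from 0.34 to -0.04. The responses of the 2 genotypes were therefore not shown to differ for any member, and missing the threshold does not show that they were alike.

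**Figure D2:**
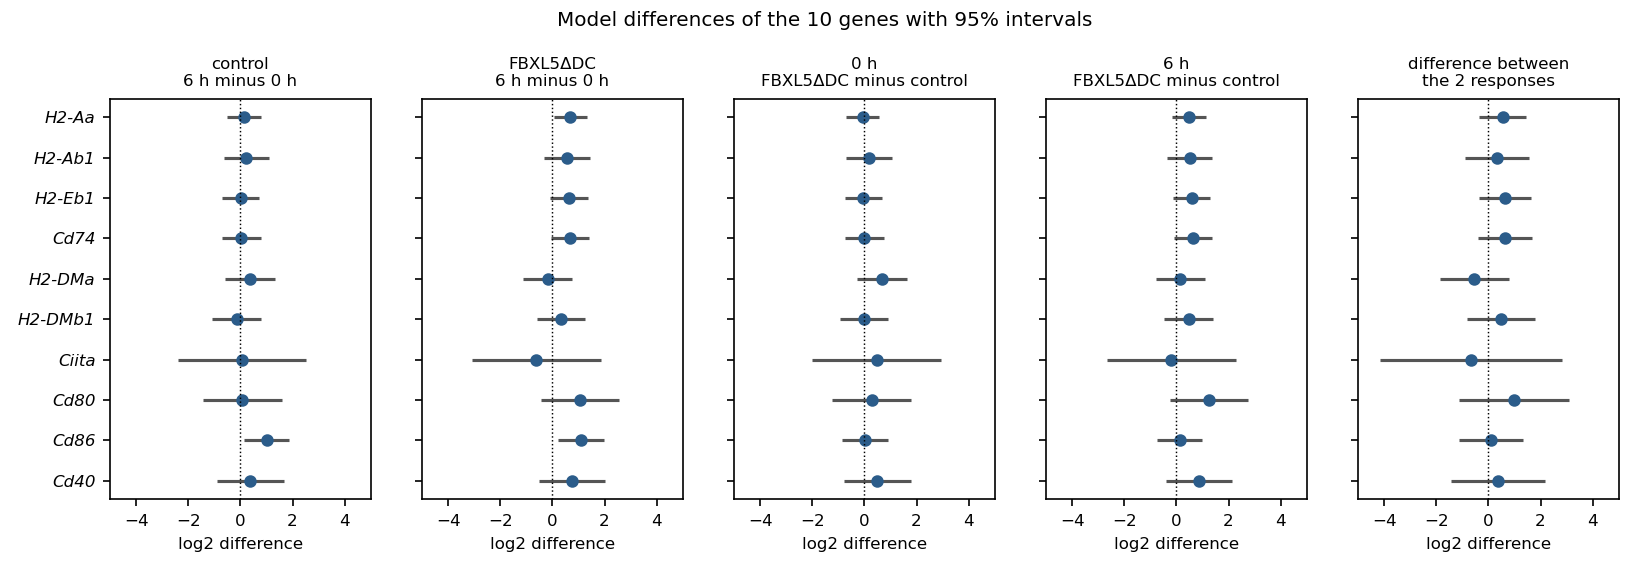
Log2 difference of each of the 10 genes (horizontal axis) in the 5 comparisons; points are the estimates of the edgeR fit and lines their 95% intervals, with 0 dotted. The interval excludes 0 for Cd86 in both responses and for H2-Aa in the FBXL5ΔDC response, none of which passed the adjusted threshold, and the intervals of Ciita are the widest.

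The levels of the 4 core class II genes varied together from liver to liver. Their highest level over their lowest was 3.65 for Cd74, 4.495 for H2-Ab1, 3.35 for H2-Eb1 and 2.92 for H2-Aa across the 12 libraries. Ratios between them within a library varied far less: Cd74 over H2-Eb1, per kilobase of exon, stayed between 4.21 and 4.97, a spread of 1.18-fold. The spread was 1.42-fold for Cd74 over H2-Ab1, 1.41-fold for H2-Eb1 over H2-Aa and 1.68-fold for H2-Aa over H2-Ab1. The H2-DM genes did not keep step, with spreads of 4.27-fold for H2-DMa and 2.95-fold for H2-DMb1 over H2-Ab1, and 4.47-fold between the pair. Cd86 over Cd74 spread 5.01-fold. The H2-DM genes and Cd86 had 34 to 214 counts per library against 276 or more for the chains and Cd74, so counting error is a larger share of their ratios.

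Summed over the 6 class II molecule genes, the level was 54.6, 45.8 and 57.3 CPM in control and 57.5, 66.8 and 36.3 CPM in FBXL5ΔDC livers at 0 h. At 6 h it was 27.7, 83.2 and 56.0 CPM in control and 97.3, 75.9 and 74.2 CPM in FBXL5ΔDC livers. Cd74 made up 49.2% to 55.6% of the sum in each library. Control replicates 1 and 2 at 6 h lay furthest apart within a group, with Cd74 at 50.7% and 51.3% of their sums.

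**Figure D3:**
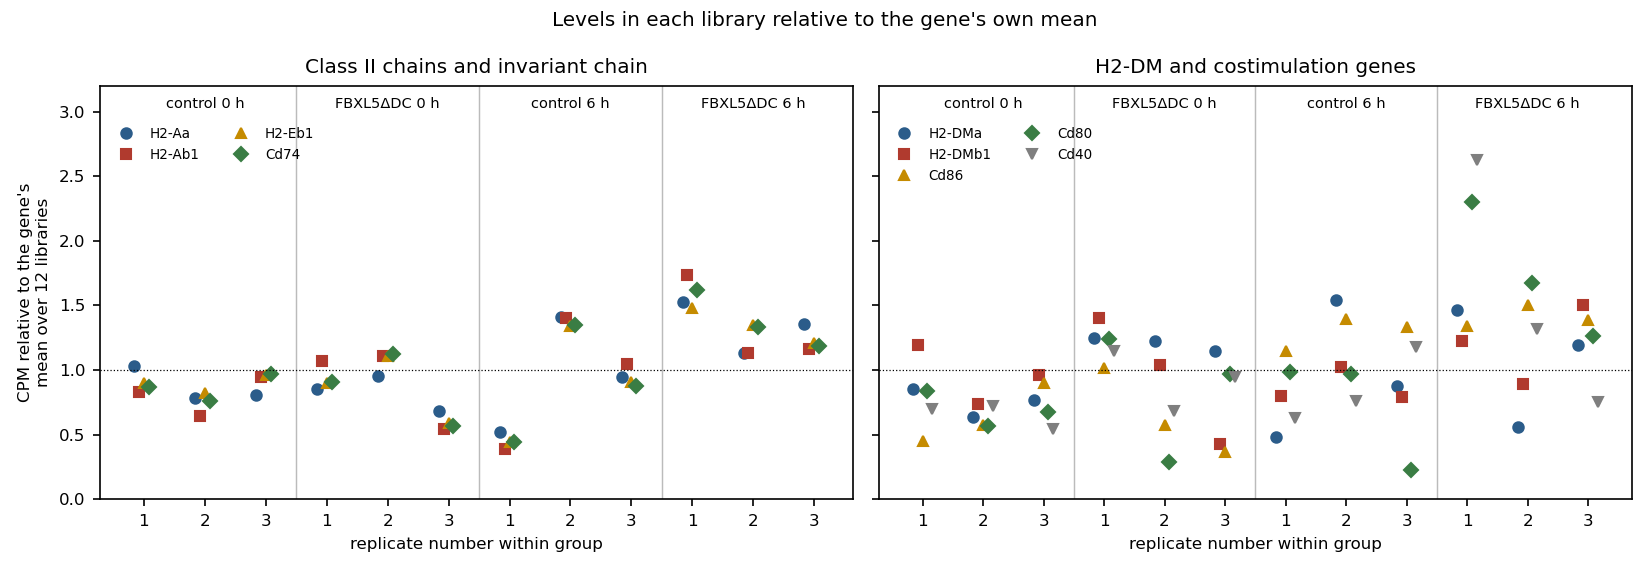
Level of each gene in each library divided by its own mean over the 12 libraries (vertical axis, ratio), by group and replicate number (horizontal axis); the left panel holds the class II chains and Cd74, the right panel the H2-DM and costimulation genes (Ciita is left out). In the left panel the 4 genes move as a bundle, low in control replicate 1 at 6 h and high in FBXL5ΔDC replicate 1 at 6 h; in the right panel they scatter.

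Per kilobase of annotated exon, averaged over the 12 libraries, Cd74 led with 18.9 ± 6.39 CPM per kb. It was followed by H2-Eb1 at 4.14 ± 1.29, H2-Ab1 at 3.79 ± 1.402 and H2-Aa at 2.27 ± 0.69. Cd74 was above H2-Eb1, and H2-Ab1 above H2-Aa, in 12 of 12 libraries, while H2-Eb1 was above H2-Ab1 in only 9. Then came H2-DMb1 (0.747), H2-DMa (0.496), Cd86 (0.375), Cd40 (0.139), Cd80 (0.124) and Ciita (0.0334 CPM per kb). Cd40 was above Cd80 in 6 of 12 libraries, so their order is not settled, and Cd86 was above Cd40 in all 12. The middle of the order depends on the length taken: with the longest principal transcript, H2-Ab1 (8.03) and H2-Aa (7.65) stood above H2-Eb1 (4.83), and H2-DMa (1.03) above H2-DMb1 (0.894). Cd74 stayed first and Ciita last with both lengths.

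The other genes of the pathway were taken from 5 lists of known roles. In the FBXL5ΔDC response, which called 30.1% of all tested genes, 6 of 10 accessory genes, 10 of 18 regulators, 3 of 12 other costimulatory genes, 8 of 14 CD40 signalling genes and 2 of 16 class I genes were called, so the shares of the other costimulatory and class I genes were below that of all genes. No test set the lists against the members. Each FBXL5ΔDC response named here kept its call when any 1 of the 12 libraries was left out, except that of H2-D1. Of the class II accessory genes, which process antigen, trim the invariant chain or remove class II from the surface, 10 were tested, and 4 rose and 2 fell (median log2 0.74). Ctsl, the cathepsin L gene, rose from 489 ± 23.6 to 1210 ± 197 CPM in FBXL5ΔDC livers (adjusted p = 0.000944) and from 439.9 ± 75.7 to 957.7 ± 324 CPM in control livers (adjusted p = 0.00675, a call lost in a fit of only the groups compared). Lgmn, an asparagine-specific protease of the endosome, rose from 39.8 ± 3.58 to 90.7 ± 20.7 CPM in FBXL5ΔDC livers (adjusted p = 0.00423). Marchf8, a membrane ubiquitin ligase that targets immune surface receptors, fell from 130 ± 5.63 to 73.3 ± 7.63 CPM in FBXL5ΔDC livers (adjusted p = 0.000288) and from 121 ± 3.48 to 77.9 ± 5.79 CPM in control livers (adjusted p = 0.00375). Cd63, a tetraspanin of late endosomes, rose in FBXL5ΔDC livers from 1.16 ± 0.569 to 15.5 ± 1.59 CPM (adjusted p = 0.00529). H2-Oa and H2-Eb2 were under the floor in all 4 groups.

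Of the regulators of Ciita and of class II promoters, 18 were tested, and in the FBXL5ΔDC response 7 rose and 3 fell (median log2 0.43). Irf8, a transcription factor of dendritic cells, macrophages and B cells, rose from 3.79 ± 0.621 to 19.9 ± 3.96 CPM in FBXL5ΔDC livers (adjusted p = 0.000105), beside 3.15 ± 0.971 and 6.22 ± 1.22 CPM in control livers. Irf8 was 3.19-fold higher in FBXL5ΔDC than in control livers at 6 h (interval 2.17 to 4.69, adjusted p = 0.00553), a call lost in a fit of only the groups compared (adjusted p = 0.0694). It was higher in 3 of 3 treated FBXL5ΔDC livers than in any treated control. Jak1, a kinase of the interferon receptors, rose from 88.3 ± 4.15 to 226 ± 5.27 CPM in FBXL5ΔDC livers (adjusted p = 0.00059). In control livers it rose by log2 0.87 (adjusted p = 0.0178). Irf1, an interferon-induced factor, rose in FBXL5ΔDC livers from 12.6 ± 2.14 to 22.2 ± 2.22 CPM (adjusted p = 0.00229). Rfxap, a subunit of the complex on the X box, fell from 10.8 ± 0.424 to 6.15 ± 0.367 CPM (adjusted p = 0.00445). Nfya, a subunit of the factor on the Y box, was at 7.22 ± 0.681 and 6.66 ± 1.75 CPM in FBXL5ΔDC livers before and after acetaminophen, beside 7.39 ± 1.98 and 13.1 ± 1.36 CPM in control livers. Ifng, the cytokine that induces Ciita, had 0 counts in every library.

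Of the other costimulatory and coinhibitory genes, 12 of 22 in the table were tested, and in the FBXL5ΔDC response 3 rose and 0 fell (median log2 0.79). Cd274, which encodes the inhibitory ligand PD-L1, rose from 0.613 ± 0.413 to 7.88 ± 0.323 CPM in FBXL5ΔDC livers (adjusted p = 0.000434), beside 0.955 ± 0.304 and 2.97 ± 1.10 CPM in control livers. Icosl, the ligand of the T cell receptor ICOS, rose from under the floor (0.126 ± 0.109 CPM) to 2.38 ± 0.173 CPM in FBXL5ΔDC livers (adjusted p = 0.00186). Icam1, an adhesion ligand for T cells, rose there from 9.64 ± 0.559 to 18.1 ± 3.44 CPM (adjusted p = 0.00524). The partners of the members on T cells were scarce. Cd40lg was at 0 or under the floor in all 4 groups, Ctla4 was above it only in treated FBXL5ΔDC livers (0.223 ± 0.176 CPM), and Cd28 was at 0.0495 to 0.246 CPM.

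Of 14 genes that carry CD40 signals, 7 rose and 1 fell in FBXL5ΔDC livers (median log2 0.78). Tnfaip3, a brake on NF-kB, rose from 1.91 ± 0.144 to 7.23 ± 0.450 CPM (adjusted p = 0.001), and Map3k14, the NF-kB inducing kinase, from 3.89 ± 0.905 to 14.1 ± 2.33 CPM (adjusted p = 0.00654). Rela and Nfkb1, subunits of NF-kB, rose there by log2 0.80 and 0.83. Both were also called in control livers, Rela at log2 0.65 (adjusted p = 0.0372) and Nfkb1 at 0.82 (adjusted p = 0.0163). So were Map3k14 at 1.51 (adjusted p = 0.0413) and Traf3, another gene of this list, at 0.98 (adjusted p = 0.0126). Of 16 genes for class I presentation, which shows peptides to CD8+ T cells, 1 rose and 1 fell in FBXL5ΔDC livers (median log2 -0.01). Erap1, which trims peptides, fell from 89.1 ± 3.38 to 52.5 ± 5.25 CPM (adjusted p = 0.000499). H2-D1, a class I heavy chain gene, rose from 471 ± 18.7 to 662 ± 51.1 CPM (adjusted p = 0.0222), a call lost in 5 of the 12 fits that leave out a library (adjusted p up to 0.0843).

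In the control response, which called 10.6% of all tested genes, the accessory genes had 1 rise and 1 fall (median log2 0.68), the regulators 3 and 0 (median 0.23), the other costimulatory genes 1 and 1 (median 0.52), CD40 signalling 4 and 1 (median 0.27) and class I 0 and 0 (median -0.01), beside 3 class I genes at an unadjusted p below 0.05 and 1 called by DESeq2. With 1 library left out, the total calls stayed at 2 or 3 for the accessory genes but ranged from 0 to 4 for the regulators (0 without control replicate 1 at 0 h), from 0 to 2 for the other costimulatory genes (0 without control replicate 2 at 0 h) and from 0 to 4 for CD40 signalling (0 without control replicate 3 at 0 h). A fit of only the groups compared left 1 call among the accessory genes and 0 in the other 4 lists. The regulators called were Jak1 (adjusted p = 0.0178), Irf8 (0.0288) and Nfya (0.0391), all higher. Of the other costimulatory genes, Cd274 was higher (0.0495) and Lgals9 lower (0.0163). Over the 12 fits that leave out a library, Traf3, Nfkb1 and Lgals9 lost their control call in 2 each and Jak1 and Irf8 in 3 each. Rela and Nfya lost it in 8 each, Cd274 in 9 and Map3k14 in 10. In the difference between the responses, edgeR on all 12 libraries called 0 genes of the 5 lists, with 1, 5, 3, 1 and 4 genes at an unadjusted p below 0.05 in the order above, and DESeq2 called 0, 2, 2, 0 and 0. Without control replicate 3 at 6 h edgeR called 2, 5, 3, 4 and 5 there. Between genotypes at 6 h, Irf8 and Irf1 were higher and Rfxap and Nfya lower in FBXL5ΔDC livers, and 1 gene was higher in each of 3 further lists (Lgmn, Lgals9 and H2-D1). All 7 calls were lost in a fit of only the groups compared (adjusted p from 0.0694 for Irf8 and 0.122 for Irf1 to 0.208 for Lgmn). Over the 12 fits that leave out a library, those of Irf8 and Irf1 were lost in 0, that of Lgals9 in 3, those of Rfxap and Nfya in 5 each, that of H2-D1 in 8 and that of Lgmn in 11. Without control replicate 3 at 6 h the regulators called went from 4 to 10, the class I genes from 1 to 7 and the CD40 signalling genes from 0 to 5. At 0 h, 0 genes of these 5 lists were called by edgeR or DESeq2, beside 1 class I gene and 1 costimulatory gene at an unadjusted p below 0.05.

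**Figure D4:**
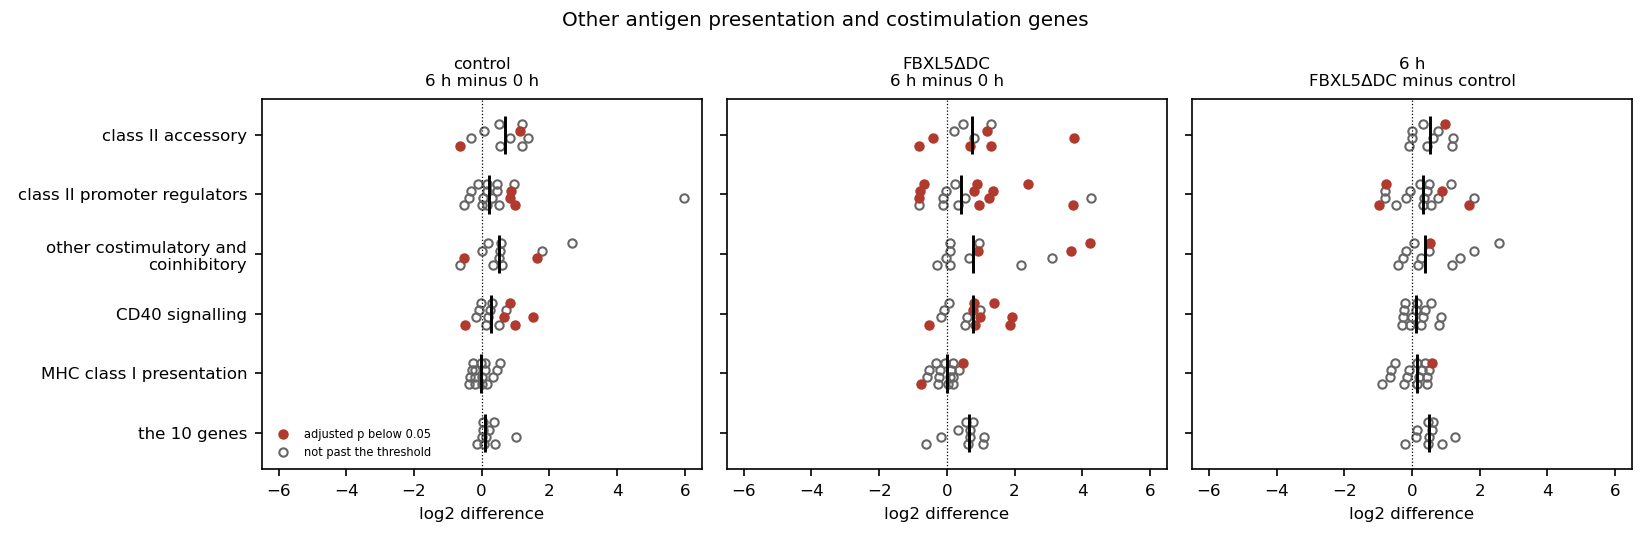
Log2 difference (horizontal axis) of the tested genes of 5 other lists and of the 10 members, in the responses of control and FBXL5ΔDC livers and between genotypes at 6 h; each circle is 1 gene, filled where the adjusted p was below 0.05, and the vertical bar is the list median. The members have 0 filled circles, and the filled circles of the other lists are most frequent in the FBXL5ΔDC response.

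Markers of the cells that carry class II, and of other liver cells, were read beside these results. Of all tested genes, 6.36% were called higher in the control response and 15% in the FBXL5ΔDC response. Between genotypes at 6 h, 1.35% were called higher in FBXL5ΔDC livers. For conventional dendritic cells, 0 of 12 markers were called in any of the 5 comparisons (0 to 3 at an unadjusted p below 0.05), and their summed level was 12.6 to 14.7 CPM in control and 9.47 to 13.6 CPM in FBXL5ΔDC livers at 0 h, and 11.2 to 17.6 and 12.2 to 15.4 CPM at 6 h. For B cells, 0 of 9 tested markers were called, with 0 at an unadjusted p below 0.05, and the 10 in the table summed to between 1.54 and 4.71 CPM in every library. For Kupffer cells and macrophages, 1 of 12 markers rose in the control and 5 in the FBXL5ΔDC response (Marco, C1qa, C1qb, C1qc and Cd163), and 2 were higher in FBXL5ΔDC livers at 6 h. Their sum was 169 to 203 CPM and 199 to 258 CPM at 0 h, and 221 to 272 CPM and 262 to 439.8 CPM at 6 h, in control and FBXL5ΔDC livers. For sinusoidal endothelium, 8 of 9 markers rose in the FBXL5ΔDC response, with a sum of 178 to 233 CPM at 0 h and 369.8 to 462 CPM at 6 h. Markers of other cells were called in the same response: 4 of 7 rose for stellate cells (sum 92.9 to 169 CPM at 0 h and 334 to 391 CPM at 6 h), 4 of 6 for cholangiocytes (20.1 to 25.8 and 68.2 to 263 CPM) and 4 of 6 tested for neutrophils (0.73 to 1.87 and 3.40 to 10.2 CPM). The sums of these and of the Kupffer cell and endothelial markers were thus higher in the treated FBXL5ΔDC livers, as the class II levels were. So were those of plasmacytoid dendritic cells (9.434 to 11.44 and 13.8 to 19.4 CPM) and T cells (0.9683 to 2.515 and 3.166 to 4.754 CPM). Of their markers, 0 of 4 tested and 0 of 10 were called in this response (lowest adjusted p 0.0784 and 0.0757 in edgeR). Among single tested genes, 24.2% stood wholly higher in it. Hepatocyte sums were higher too (91870 to 101500 and 113000 to 146000 CPM), with 2 of 8 markers called higher and 1, Cyp2e1, lower. For monocytes, 2 of 9 markers rose in the FBXL5ΔDC response (Chil3 and Plac8), and the sums overlapped (1340 to 1670 and 1467 to 1800 CPM). In control livers the Kupffer cell, cholangiocyte (15.01 to 23.49 and 27.23 to 82.21 CPM), neutrophil and red cell sums were higher at 6 h without overlap. The summed class II levels overlapped there. The part of any of these cells in the class II levels was not tested. Control replicates 1 and 2 at 6 h had summed class II levels of 27.7 and 83.2 CPM. They were at 14.2 and 17.6 CPM for dendritic cell, 3.16 and 4.71 CPM for B cell and 221 and 272 CPM for Kupffer cell markers. For sinusoidal endothelium markers they were at 194.5 and 191.7 CPM. Control replicate 3 at 6 h, at 55.96 CPM of class II, was at 11.17, 2.197, 242.6 and 299.1 CPM for these lists. Its dendritic and B cell sums were thus below those of replicate 1, although its class II level was higher. Of the lists just given for these livers, only the Kupffer cell sums had the order of the class II levels. Sums of some further lists had that order too. In control replicates 1, 2 and 3 at 6 h, neutrophil sums were 2.658, 3.622 and 3.566 CPM. T cell sums were 2.155, 3.053 and 2.182 CPM, and NK cell sums 0.9547, 2.781 and 1.144 CPM.

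Over the 12 libraries, the genes whose log2 CPM lay closest to the mean profile of the 6 class II molecule genes were Septin1, Rbak, Tmem267, Crlf2, Itgb7, Vsig4, Clec1b and Ldb2. Their root mean square difference from the profile ran from 0.178 to 0.276 log2 units, where the profile itself departed from its own mean by 0.434. For the mean of Cd80, Cd86 and Cd40 the closest were Arhgdib, Vav1, Tgfb1, Slc35f6, Wls, Rtp4, Papolg and Znrd1, at 0.202 to 0.302 against 0.533. The same 12 livers carry all of these values, and which genes came closest changed with the libraries used: 2 to 6 of the 8 stayed in each list when 1 library was left out.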

How the data were processed

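RNA from 12 whole livers was sequenced. Trim Galore 0.6.6, HISAT2 2.2.1 and the build mm10 are named in the submitters' processing notes. The authors deposited estimated counts per gene, not normalised. How they were counted, and whether by strand, is not given in the sources used here. Every value was whole before rounding, yet multiples of 4 made up 27.5% of those between 1 and 40 (an even spread gives 25%), which hides how many fragments stand behind a count. The design had assumed plain counts, and its test was kept.

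Genes were filtered with filterByExpr by group, scaled with TMM factors (0.855 to 1.14) and fitted with edgeR 4.0.16 (robust quasi-likelihood, R 4.3.3), using 1 coefficient per group, which left 8 residual degrees of freedom. P-values were adjusted by the Benjamini-Hochberg method over all 17585 tested genes of a comparison. Intervals are 95% intervals of that fit, and a prior count of 2 entered log2 CPM. No library was a copy of another (with counts divided by 4, chi-square over its degrees of freedom was 16.1 or more). Positions and exon lengths came from GENCODE vM21 (GRCm38), which held 98.1% of the identifiers with their version. Differential calls were tested on simulated data first.

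Alternatives were other size factors, DESeq2 1.42.0, no filter, fits of only the groups compared, a replicate block and leaving out each library. All 10 members are named. From each pathway list, up to 4 genes with the smallest adjusted p among those called in a comparison are named, and others given as counts. The members and lists were chosen with earlier results of these data known. The averaged response, counts divided by 4 and the principal transcript length were added after seeing the data. The X box core was shortened after a longer form had been searched, which matched in the same windows of the members.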

Additional observations from a re-analysis of the deposited data

Results flagged for a closer look

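Irf1, an interferon-induced factor that acts on the Ciita promoter, had responses of opposite sign in the genotypes, of which the FBXL5ΔDC response passed the test. It was at 15.2 ± 1.13 CPM in untreated and 12.1 ± 1.26 CPM in treated control livers (n = 3 each), and at 12.6 ± 2.14 and 22.2 ± 2.22 CPM in FBXL5ΔDC livers. The 3 treated control livers were all below the untreated ones, and the 3 treated FBXL5ΔDC livers all above. Irf1 was picked from the named genes by this pattern, so neither it nor the test below is independent of that choice. The share of all tested genes with the pattern was not counted. In the edgeR fit the control response of Irf1 missed the threshold (adjusted p = 0.222). The log2 responses of Irf1 were -0.33 in control and 0.82 in FBXL5ΔDC livers, and they differed by 1.14 (SE 0.22). That difference was tested in the edgeR fit and missed the threshold (adjusted p = 0.06, from 0.000197 with DESeq2 to 0.167 without FBXL5ΔDC replicate 2 at 0 h). It passed in 3 of 18 alternatives: DESeq2, the replicate block and without control replicate 3 at 6 h (0.00537).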

How the results depend on the processing

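Of 1114 values of the 10 members under the alternatives, 1106 kept their direction and side of the threshold or changed sign only while uncalled, 8 passed the threshold only under the alternative, and 0 lost a call or reversed one. In the FBXL5ΔDC response, where no member was called, DESeq2 called 1 (Cd86, adjusted p = 0.0241), a fit of only the groups compared called 2 (H2-Aa, 0.0191, and Cd74, 0.0437), and counts divided by 4 called 1 (Cd86, 0.0407). Leaving out 1 library gave 0 to 1 there: Cd86 (0.0223) without FBXL5ΔDC replicate 1 at 0 h, and H2-Aa (0.0338) without control replicate 1 at 6 h. For the response averaged over genotypes, leaving out 1 library gave 1 to 3, with H2-Aa (0.0197) and Cd74 (0.0417) added to Cd86 without control replicate 1 at 6 h. Cd86 was called there in all 18 alternatives run, with adjusted p from 0.00148 to 0.034. The cause of these differences was not tested. The fit of only the groups compared could not be run for the interaction or the averaged response, which need all groups.

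With the replicate number as a block, 0 members were called in the 5 comparisons and 1 in the averaged response. Same-numbered libraries did not deviate together (18 pairs, correlations of deviations from -0.0614 to 0.0441, none over 0.1). This cannot exclude that a number marks a shared litter, cage or day, which the labels do not say.

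Counts over all genes moved more. In the control response 1857 genes were called, 402 with only the groups compared, 2883 by DESeq2 and 763 to 2170 with 1 library left out. Between genotypes at 6 h the counts were 1031, 6, 2143 and 250 to 4249. For the interaction they were 51, 686 by DESeq2, 20 with upper quartile factors and 1 to 2533, and between genotypes at 0 h 0 and, by DESeq2, 14. Cd80, Cd40 and Ciita had 0 to 81 counts per library, which limits what could be detected in them.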
